A study of Mus musculus with 24 samples.

Results

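Bone morphogenetic protein (BMP) signalling was followed through 10 genes, the type I receptors Bmpr1a and Bmpr1b, the inhibitors Nog, Bambi, Smad6 and Smad7, and the Id genes Id1 to Id4. They were taken by symbol, after the Ensembl identifiers of the count table had been matched to the Gencode mouse annotation, and are 10 of the 49671 genes of that table. All 10 had enough counts to be tested, together with 19691 genes in all. BMP dimers bind a complex of type I and type II receptors on the cell surface, whose kinases phosphorylate Smad1, Smad5 and Smad9, and these enter the nucleus with Smad4 and activate genes that carry their binding sites. Id1 to Id4 are direct targets of this pathway and encode helix-loop-helix proteins that capture E proteins and keep them from pairing with the factors that drive neuronal differentiation, while Smad6, Smad7 and Bambi are targets that act back on the receptors. In neural stem cells BMPs are known for promoting the astrocyte fate, and the secreted inhibitor Noggin (Nog) for holding them off.

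Each of 6 groups had 4 biological replicates, 24 libraries in all, which were separate isolations of primary cells or cultures from different passages. Neural stem cells (NSC) had been derived from 1 embryonic stem cell line of C57Bl/6 N mice, GSC-5003, and were grown with 20 ng/ml each of FGF and EGF at passages 50 to 60. AGES, the astrocytes made from embryonic stem cells, were these NSC after 3 to 5 days with 20 ng/ml BMP4. BMP4, the absence of FGF and EGF from the listed medium and a change of coating went together, so their parts in any difference between AGES and NSC cannot be told apart, and all 8 libraries rest on 1 line. Primary astrocytes were sorted magnetically by the surface antigen ACSA-2 from wild-type C57BL/6J mice of mixed sex, with 2 mice pooled per isolation. Neonatal astrocytes came from the cerebral tissue of mice aged 4 to 8 days. Adult astrocytes came from brains of mice aged 100 to 140 days, with another dissociation kit, so age, kit and region cannot be told apart. Olfactory bulb and cerebellum were removed for direct isolation of adult cells. Whether they were also removed for adult cells to be cultured is not stated outright, so region may also differ between AdAC CellC and AdAC direct. The substrain likewise differs between the NSC or AGES and all primary cells. Each was taken directly after sorting (neoAC direct, AdAC direct) or after 7 to 10 days in AstroMACS medium (neoAC CellC, AdAC CellC). No BMP is listed as added to this medium. Its full composition is not given, so whether it held BMP is not known.

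The total per library was 27904126 to 37997368 counts. Levels are in CPM, counts scaled to a common library total with edgeR's TMM factors, on which 3 counts of a library were 0.0786 to 0.117 CPM, a floor that covers counting error only. Changes are log2 fold changes of edgeR's quasi-likelihood fit with their standard error (SE), called at an adjusted p under 0.05. The lowest correlation between libraries of a group was 0.985 over genes on the log2 CPM scale, and no library appeared to be deposited again. The summed level of 8 astrocyte markers was 51736 to 56638 CPM in AGES and 7161 to 8366 in neoAC CellC, with 19601 to 22814 in the neonatal and 13690.3 to 14286 in the adult cells taken directly. The higher sum in AGES than in neoAC CellC did not hold marker by marker. Of the 8 markers 1 was higher and 4 were lower in AGES, with a median log2 fold change of −0.22 (34.1% of all genes higher, 40.5% lower). In AdAC CellC the astrocyte marker sum was 902 to 1371 CPM, below the 1679 to 2067 of the NSC, so the markers of the labelled cell type were low there. AdAC CellC held 995 to 1425 CPM of 4 fibroblast markers, 855 to 1016 of 5 mural markers and 4090.2 to 10427 of 6 oligodendrocyte markers, against 75.2 to 92.3, 312 to 332 and 25592 to 28413 in AdAC direct. The higher mural sum came from Acta2 alone (a mean of 813 against 69.7 CPM), and the other 4 mural markers were lower in AdAC CellC. Oligodendrocyte markers summed to 320 to 394 CPM in neoAC direct and 247 to 330 in neoAC CellC, where 5 of the 6 were higher and 1 lower, with a median log2 fold change of 1.29. In neoAC direct, replicate 2 stood apart with 361 CPM of 7 endothelial markers, where the group began at 92.6. Without it none of 30 fold changes of the 10 genes changed its call, and the largest move was 0.0791 on the log2 scale. These were neoAC direct against neoAC CellC and AdAC direct, and the difference between the ages in the change with culture. Other pairs with neoAC direct were not refitted without replicate 2. NSC and AGES had at most 1.41 CPM of the fibroblast, 8.46 of the mural and 9.38 of the endothelial markers, with 3 of 7 endothelial, 2 of 5 mural and 2 of 4 fibroblast markers at 3 counts or fewer in every AGES library. These are bulk samples, in which fewer cells of a type and less RNA per cell cannot be told apart.

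The promoters are shown because all 10 genes were higher in the BMP4-treated AGES than in NSC, and because the letters that Smad proteins bind in DNA are known, GTCTAGAC for the paired Smad box and GGCGCC for the GC-rich site that Smad1 and Smad5 prefer.
RefSeq windows of 250 bases before and 50 after the gene start (GRCm38.p6) were searched for 6 of the 10 members, Id2, Id3, Id4, Smad6, Bmpr1a and Bmpr1b. Those of Id1, Nog, Smad7 and Bambi were not searched, so nothing is said about their letters.
The Smad6 window held GTCTAGAC across the gene start, with 4 of its letters before the start and 4 from it on, and 0.213% of all 32851 windows of this length held these letters. The site and its surroundings lie on the minus strand at chr9:64022045-64022074, with the 8 letters in capitals, which read the same on both strands.
Smad6: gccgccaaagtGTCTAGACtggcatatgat
Id2, Id4 and Bmpr1a each held GGCGCC at 1 place, and 11.9% of all windows held these letters. The runs that follow start at the upstream end of each window and stop at the next Gencode exon of any gene or at the RefSeq start, chr12:25096254-25096342 on the minus strand, chr13:48260866-48261115 on the plus strand and chr14:34502688-34502796 on the minus strand, with GGCGCC in capitals. They lie before the RefSeq start, but those of Id2 and Bmpr1a lie in an intron of a Gencode transcript that begins farther upstream.
Id2: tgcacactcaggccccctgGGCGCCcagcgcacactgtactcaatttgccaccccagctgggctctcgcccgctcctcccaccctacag
Id4: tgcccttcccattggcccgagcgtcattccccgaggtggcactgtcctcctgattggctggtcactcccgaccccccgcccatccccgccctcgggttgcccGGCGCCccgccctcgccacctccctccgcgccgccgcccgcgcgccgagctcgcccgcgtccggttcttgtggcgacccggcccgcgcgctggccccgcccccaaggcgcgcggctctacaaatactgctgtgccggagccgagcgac
Bmpr1a: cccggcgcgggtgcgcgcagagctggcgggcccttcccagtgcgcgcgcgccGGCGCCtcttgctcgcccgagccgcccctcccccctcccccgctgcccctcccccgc
Neither pattern was found in the Id3 window or the 3 Bmpr1b windows, which says only that these letters were not in those 300 bases. Of 10 patterns searched on both strands, the short box GTCT was in 88.0% of all windows and its longer form CAGAC in 49.6%, so their presence was common, and CAGAC contains the complement of GTCT. A match is a description of the sequence and not a binding site.

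All 10 genes were higher in AGES than in NSC, where 65.7% of all genes tested changed, 31.7% upwards and 34% downwards. The median log2 fold change of the 10 was 3.92, beside 0.00 over all genes tested. Against cultured neonatal astrocytes 9 of the 10 were higher in AGES and 1, Id4, was lower, with 74.6% of all genes called (34.1% higher, 40.5% lower) and a median of 1.76 beside −0.07. Against cultured adult astrocytes 7 were higher and again Id4 was lower, with 76.2% of all genes called (31% higher, 45.2% lower), while Smad7 and Bambi did not pass the test. The median of the 10 there was 2.64, and that of all genes was −0.23, so log2 fold changes in this comparison are read against a shift of that size. These 3 comparisons share the AGES libraries. The libraries of the groups compared did not overlap for 10 of the 10 genes against NSC (58.3% of all genes), 10 against neoAC CellC (69.6% of all genes) and 9 against AdAC CellC (73.1% of all genes). In neonatal cells 2 of the 10 rose and 6 fell in culture (65.7% of all genes called, 34.4% higher and 31.3% lower). In adult cells 3 rose and 4 fell (78% of all genes called, 38.8% higher and 39.2% lower). Between cultured neonatal and cultured adult cells 7 were higher and 2 lower in the neonatal ones (63.8% of all genes called, 28.5% higher and 35.2% lower), and 9 did not overlap (62.2% of all genes). Between the directly isolated cells 8 were higher and 1 lower (71.4% of all genes called, 35% higher and 36.4% lower), and 10 did not overlap (64.9% of all genes). With backgrounds this high, a call by itself separated the 10 genes little from the rest.

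**Figure D1:**
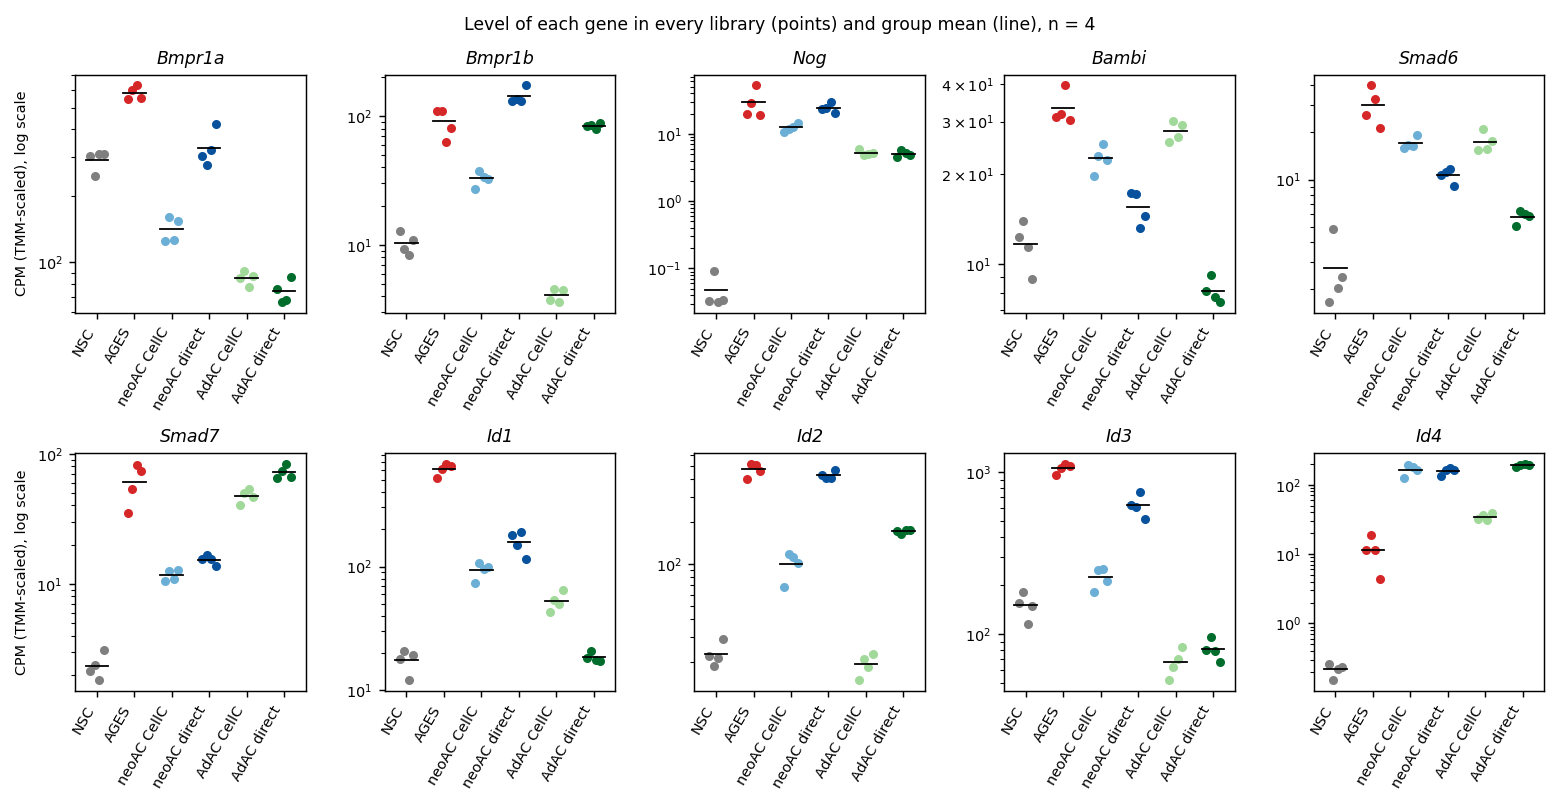
Level of each of the 10 genes in every library, in TMM-scaled CPM on a log axis, with the 6 groups along the x axis, 1 point per library and a line at the group mean (n = 4). The AGES points lie above the NSC points in all 10 panels, and the order of the other groups changes from gene to gene.

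Bmpr1a (ALK3), a type I receptor kinase that binds BMP2 and BMP4, lies on chromosome 14 from 34410734 to 34503341 of GRCm38. It had 302, 246, 308 and 307 CPM in the 4 NSC libraries and 549, 598, 629 and 549.8 in AGES. The groups did not overlap, and the log2 fold change was 1.00 (SE 0.12, edgeR adjusted p = 3.00e-08), the lowest of the 10 in this comparison. The levels in neoAC direct, 303, 274, 321 and 421 CPM, overlapped those of the NSC, and no difference was detected (log2 difference 0.18, SE 0.12, edgeR adjusted p = 0.15). Cultured neonatal cells had less Bmpr1a, 125, 159.8, 126 and 154 CPM, a log2 fold change of −1.23 (SE 0.12, edgeR adjusted p = 1.37e-09). Adult cells had the lowest levels whether cultured, at 77.3 to 91.6 CPM, or directly isolated, at 66.3 to 86.3, and the log2 fold change of 0.20 between them did not pass the test (edgeR adjusted p = 0.123). In a fit of the adult groups alone it passed (edgeR adjusted p = 0.0421). The changes with culture differed between the ages by 1.42 (SE 0.17, edgeR adjusted p = 3.65e-08) on the log2 scale. The groups ran AGES, neoAC direct, NSC, neoAC CellC, AdAC CellC and AdAC direct from the highest to the lowest mean. Exons of Gm17110 on the other strand cover 4.57% of the Bmpr1a exon bases, and whether counting used the strand is not given in the sources used here.

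Bmpr1b (ALK6), the other type I receptor of this set, lies on chromosome 3 from 141837136 to 142169425. In directly isolated cells it stood at 132, 136, 131 and 173 CPM (neonatal) and 83.7, 84.7, 79.0 and 88.5 CPM (adult). After culture the neonatal cells had 27.1, 37.5, 33.9 and 32.8 CPM and the adult cells 3.74, 4.52, 3.61 and 4.47 CPM. No cultured library reached the level of any directly isolated one, and the fall was 4.36-fold in neonatal cells, with a log2 fold change of −2.12 (SE 0.15, edgeR adjusted p = 6.62e-12). In adult cells the fall was 20.6-fold, a log2 fold change of −4.36 (SE 0.17, edgeR adjusted p = 4.73e-17), the largest change with culture among the 10 genes. The adult change exceeded the neonatal one, with a difference of −2.24 (SE 0.22, edgeR adjusted p = 2.19e-09). NSC had 12.7, 9.38, 8.31 and 10.9 CPM and AGES 111, 109.8, 63.1 and 81.1 CPM, again without overlap, and the log2 fold change was 3.14 (SE 0.16, edgeR adjusted p = 6.40e-15). From the highest mean to the lowest the order was neoAC direct, AGES, AdAC direct, neoAC CellC, NSC and AdAC CellC. AGES and AdAC direct were the only neighbours in it without a detected difference (log2 difference 0.12, SE 0.14, edgeR adjusted p = 0.458).

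The make-up of the type I receptors differed between the groups. Per kilobase of exon, Bmpr1b was 54.8% ± 2.30 (SD, n = 4) of the sum of Bmpr1a and Bmpr1b in AdAC direct and 4.85% ± 0.304 in AdAC CellC. In neonatal cells the share was 31.7% ± 1.97 directly after isolation and 19.9% ± 1.72 in culture. It was 3.66% ± 0.635 in NSC and 14.3% ± 3.55 in AGES. The sum of both receptors per kilobase was 107 ± 5.43 CPM in AGES, 76.0 ± 13.3 in neoAC direct, 47.5 ± 4.79 in NSC and 27.7 ± 3.42 in neoAC CellC. It was 25.8 ± 1.97 in AdAC direct and lowest, 14.1 ± 1.01, in AdAC CellC. AdAC direct was the only group of the 6 in which Bmpr1b made up the larger part.

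**Figure D2:**
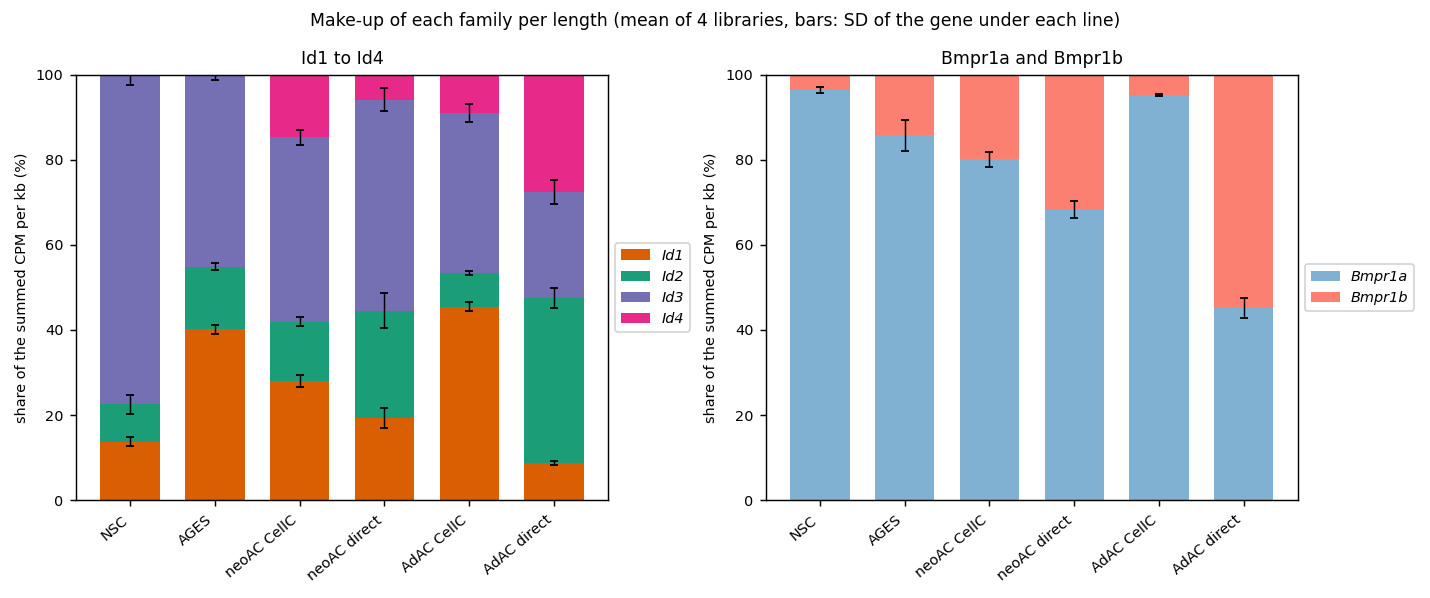
Share of each gene in the summed CPM per kilobase of its family, Id1 to Id4 on the left and Bmpr1a with Bmpr1b on the right, as the mean of 4 libraries in each of the 6 groups, with error bars of 1 SD for the gene below each line. Id3 fills 77.4% of the Id sum in NSC, and Bmpr1b makes up 54.8% of the receptor sum in AdAC direct.

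Nog encodes Noggin, which binds BMP2, BMP4 and BMP7 outside the cell, and lies on chromosome 11 from 89300638 to 89302332. The NSC libraries held 1 to 3 counts each, 6 in all, and the AGES libraries 19.4, 28.5, 52.5 and 19.3 CPM. From the summed counts AGES had 634 times the level of the NSC, with an exact 95% counting interval from 291 to 1729.7 that leaves out the variation of the replicates. That variation was wide in AGES, where the highest library had 2.72 times the level of the lowest. The difference between AGES and NSC passed the test (edgeR adjusted p = 3.36e-16), and its fitted size depends on how low counts are handled. Neonatal cells had 23.5, 23.9, 29.3 and 20.2 CPM when directly isolated and 10.7, 11.9, 12.7 and 14.7 CPM in culture, which did not overlap, with a log2 fold change of −0.95 (SE 0.21, edgeR adjusted p = 3.65e-04). Adult cells had 4.54, 5.68, 5.20 and 4.79 CPM and 5.89, 4.90, 5.04 and 5.24 CPM, which overlapped, and the log2 fold change of 0.06 did not pass the test (edgeR adjusted p = 0.823). The change with culture differed between the ages by 1.01 (SE 0.31, edgeR adjusted p = 0.00612). Directly isolated neonatal cells were 4.78-fold above adult cells, a log2 fold change of 2.26 (SE 0.23, edgeR adjusted p = 2.68e-09). Ranked by mean, the groups were AGES, neoAC direct, neoAC CellC, AdAC CellC, AdAC direct and NSC. No difference was detected between AGES and neoAC direct (log2 difference 0.31, SE 0.21, edgeR adjusted p = 0.187), and the adult groups are the pair given above.

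Bambi, a membrane protein that resembles a type I receptor without a kinase, lies on chromosome 18 from 3507923 to 3516404. It had 12.3, 13.9, 11.4 and 8.86 CPM in NSC and 31.2, 31.7, 39.7 and 30.5 in AGES, where replicate 3 was the highest, and the groups did not overlap. The log2 fold change was 1.52 (SE 0.13, edgeR adjusted p = 4.96e-11). It rose in culture at both ages. Adult cells went from 8.09, 9.17, 7.75 and 7.44 CPM to 25.6, 30.2, 26.6 and 29.2 CPM, with a log2 fold change of 1.78 (SE 0.13, edgeR adjusted p = 2.53e-12). Neonatal cells went from 17.2, 17.1, 13.2 and 14.4 CPM to 19.8, 23.0, 25.3 and 22.3 CPM, with a log2 fold change of 0.54 (SE 0.12, edgeR adjusted p = 3.99e-04), and the adult rise exceeded the neonatal one by 1.24 (SE 0.18, edgeR adjusted p = 8.97e-07). The order of the means was AGES, AdAC CellC, neoAC CellC, neoAC direct, NSC and AdAC direct, and all neighbours but the first pair differed. AGES and AdAC CellC did not overlap, but the log2 fold change of 0.25 did not pass the test (edgeR adjusted p = 0.0584). With DESeq2's size factors this difference passed (edgeR adjusted p = 0.0324). The lower level in neoAC CellC than in AdAC CellC, −0.31 with an edgeR adjusted p of 0.0304, did not pass with DESeq2's size factors (edgeR adjusted p = 0.16) or scaling by library size alone (edgeR adjusted p = 0.102).

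Smad6, an inhibitory Smad that competes with Smad1 for its partners, lies on chromosome 9 from 63953076 to 64022059, and its window held the letters GTCTAGAC shown above. NSC had 1.66, 4.83, 2.04 and 2.41 CPM, with replicate 2 above the others, and AGES had 25.9, 39.8, 32.7 and 21.3 CPM. The groups did not overlap, with a log2 fold change of 3.44 (SE 0.23, edgeR adjusted p = 1.34e-12). In adult cells Smad6 had 5.04, 6.27, 6.03 and 5.89 CPM directly and 15.4, 21.0, 15.5 and 17.7 CPM in culture. In neonatal cells it had 10.7, 11.1, 11.7 and 9.08 CPM directly and 15.9, 16.6, 16.4 and 19.3 CPM in culture. Cultured cells were higher without overlap at either age. The log2 fold changes were 1.58 (SE 0.21, edgeR adjusted p = 3.21e-07) and 0.68 (SE 0.21, edgeR adjusted p = 0.00576), and they differed by 0.90 (SE 0.30, edgeR adjusted p = 0.00929). Between the cultured cells of both ages no difference was detected (−0.03, SE 0.20, edgeR adjusted p = 0.915). This was the only step in the order AGES, AdAC CellC, neoAC CellC, neoAC direct, AdAC direct and NSC that did not pass. AGES were above both, by 0.78 (SE 0.20, edgeR adjusted p = 0.00121) against AdAC CellC and 0.81 (SE 0.20, edgeR adjusted p = 9.08e-04) against neoAC CellC.

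Smad7, the inhibitory Smad that sends receptors of the whole TGF-β family to degradation, lies on chromosome 18 from 75367529 to 75395935. Its order of groups differed from that of Smad6. NSC had 2.12, 2.37, 1.81 and 3.11 CPM and AGES 34.8, 53.1, 81.4 and 73.4 CPM, without overlap and with a log2 fold change of 4.69 (SE 0.22, edgeR adjusted p = 1.11e-15). AdAC direct had 65.2, 73.8, 83.9 and 66.0 CPM, the highest mean of the 6 groups, while Smad6 was lower there than in every group but the NSC. In AdAC CellC it had 40.4, 50.3, 53.2 and 46.8 CPM, below AdAC direct without overlap, a log2 fold change of −0.60 (SE 0.17, edgeR adjusted p = 0.00293). Neonatal cells had 15.6, 16.7, 15.4 and 13.7 CPM directly and 10.5, 12.6, 10.9 and 12.8 CPM in culture, and these did not overlap, but the log2 fold change of −0.39 did not pass the test (edgeR adjusted p = 0.0626). In a fit of only the 2 neonatal groups it passed (edgeR adjusted p = 0.0058). No difference between the ages in the change with culture was detected (−0.21, SE 0.25, edgeR adjusted p = 0.47). Of the 10 genes, Smad7 was the only 1 that was lower in neonatal than in adult cells both directly isolated (−2.23, SE 0.18, edgeR adjusted p = 7.57e-11) and in culture (−2.03, SE 0.18, edgeR adjusted p = 8.08e-10). All 6 oligodendrocyte markers were likewise lower in neonatal cells, with a median log2 fold change of −9.53 directly and −6.54 in culture, and their part in the differences between the ages was not tested. The order of the means was AdAC direct, AGES, AdAC CellC, neoAC direct, neoAC CellC and NSC. No difference was detected between AdAC direct and AGES (log2 difference 0.25, SE 0.17, edgeR adjusted p = 0.182) or AGES and AdAC CellC (log2 difference 0.35, SE 0.17, edgeR adjusted p = 0.0689), and without AGES replicate 1, the lowest AGES library, the latter was 0.54 and passed (edgeR adjusted p = 0.00106).

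Id1 lies on chromosome 2 from 152736251 to 152737410 and is the Id gene most often used as a readout of BMP signalling. NSC had 17.96, 20.7, 12.1 and 19.3 CPM and AGES 522, 612, 677 and 649.5 CPM. Every AGES library was far above every NSC library, and the mean rose 35.2-fold, a log2 fold change of 5.14 (SE 0.19, edgeR adjusted p = 1.16e-17). Id1 was the member whose change with culture pointed in opposite directions at the different ages. In adult cells it rose from 18.2, 20.8, 17.6 and 17.3 CPM to 42.6, 53.6, 49.8 and 64.8 CPM, a log2 fold change of 1.51 (SE 0.16, edgeR adjusted p = 8.40e-09). In neonatal cells it fell from 179.6, 149.8, 189.5 and 115 CPM to 74.0, 107, 96.2 and 98.8 CPM, a log2 fold change of −0.75 (SE 0.16, edgeR adjusted p = 1.76e-04). Neither the adult nor the neonatal groups overlapped, and the difference between the changes was 2.27 (SE 0.23, edgeR adjusted p = 3.71e-09). Directly isolated neonatal cells had 8.59 times the level of adult cells, a log2 fold change of 3.10 (SE 0.17, edgeR adjusted p = 4.60e-14), while cultured neonatal cells had 1.79 times that of cultured adult cells (0.84, SE 0.16, edgeR adjusted p = 5.90e-05). Id1 is also transcribed in endothelial cells, whose markers were highest in neoAC direct replicate 2. The Id1 level of that library lay within the range of the other 3, and without it the difference between neoAC direct and AdAC direct was 3.13 (edgeR adjusted p = 3.48e-13). Of 7 endothelial markers 5 were higher and 0 lower in neoAC direct than in AdAC direct, and the part of these cells was not tested. The higher fibroblast marker sum in AdAC CellC, with 4 of 4 markers higher, moved with the adult rise, and its part in it was not tested. The groups followed each other as AGES, neoAC direct, neoAC CellC, AdAC CellC, AdAC direct and NSC, and the last step was the only 1 without a detected difference (log2 difference 0.08, SE 0.16, edgeR adjusted p = 0.665).

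Id2 lies on chromosome 12 from 25093799 to 25097140. NSC had 21.9, 18.5, 21.1 and 29.1 CPM and AGES 405, 519, 505 and 464 CPM, far apart, with a log2 fold change of 4.39 (SE 0.16, edgeR adjusted p = 1.07e-17). AGES overlapped neoAC direct, which had 428, 408, 409.8 and 466 CPM, and no difference was detected (log2 difference 0.15, SE 0.14, edgeR adjusted p = 0.36). Id2 fell in culture at both ages, in neonatal cells to 67.7, 118, 111 and 102 CPM and in adult cells from 173, 164, 174 and 173 to 14.7, 21.0, 18.3 and 22.8 CPM. All cultured libraries lay below all directly isolated libraries of either age. The log2 fold changes were −2.10 (SE 0.15, edgeR adjusted p = 4.51e-12) in neonatal cells and −3.15 (SE 0.16, edgeR adjusted p = 2.26e-15) in adult cells, and the adult minus the neonatal change was −1.05 (SE 0.20, edgeR adjusted p = 6.96e-05). Cultured adult cells overlapped the NSC, and no difference between them was detected (log2 difference 0.24, SE 0.15, edgeR adjusted p = 0.147), while the other steps in the order AGES, neoAC direct, AdAC direct, neoAC CellC, NSC and AdAC CellC passed, apart from the first, given above. Id1 and Id2 moved in opposite directions when adult cells were cultured.

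Id3 lies on chromosome 4 from 136143497 to 136145755 and had the highest level per length of the Id genes in NSC, AGES, neoAC direct and neoAC CellC. NSC had 156, 183, 116 and 149 CPM and AGES 961, 1065, 1129.6 and 1090.2 CPM, a log2 fold change of 2.81 (SE 0.16, edgeR adjusted p = 2.23e-14), which was the smallest of the 4 Id genes. Neonatal cells went from 631, 611, 753 and 514 CPM to 182, 248, 254 and 214 CPM in culture, without overlap, a log2 fold change of −1.48 (SE 0.15, edgeR adjusted p = 3.35e-09). Adult cells had 79.5, 96.6, 79.3 and 67.2 CPM directly and 52.0, 63.2, 70.3 and 83.8 CPM in culture, which overlapped, and the log2 fold change of −0.26 did not pass the test (edgeR adjusted p = 0.11). With DESeq2's size factors the adult value was −0.34 and passed (edgeR adjusted p = 0.035). The change differed between the ages by 1.22 (SE 0.21, edgeR adjusted p = 1.33e-05). Directly isolated neonatal cells had 7.77 times the Id3 level of adult cells, a log2 fold change of 2.96 (SE 0.16, edgeR adjusted p = 1.33e-14). The means ran AGES, neoAC direct, neoAC CellC, NSC, AdAC direct and AdAC CellC, and all steps but the last passed.

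Id4 lies on chromosome 13 from 48261228 to 48266026 and set itself apart from the other Id genes in AGES. NSC had 5 to 8 counts per library, which is 0.261, 0.152, 0.223 and 0.234 CPM, and AGES had 11.4, 18.9, 11.3 and 4.31 CPM. The groups did not overlap and the log2 fold change was 5.71 (SE 0.41, edgeR adjusted p = 1.62e-11), the largest of the 4 Id genes from the lowest starting level. The AGES libraries differed among themselves by 4.38 times from lowest to highest, with replicate 4 the lowest and replicate 2 the highest, whereas Id1 differed by 1.30 times. Id4 was also the only member lower in AGES than in cultured astrocytes, with 124, 194, 182 and 163 CPM in neoAC CellC and 32.0, 36.1, 30.9 and 38.9 in AdAC CellC. The log2 fold changes of AGES were −3.85 (SE 0.25, edgeR adjusted p = 2.93e-12) and −1.58 (SE 0.24, edgeR adjusted p = 2.64e-06). In adult cells Id4 fell in culture from 180.4, 192, 201 and 195 CPM, a log2 fold change of −2.48 (SE 0.23, edgeR adjusted p = 1.74e-09). In neonatal cells, at 136, 162, 177 and 165 CPM directly, no change was detected (0.05, SE 0.22, edgeR adjusted p = 0.849), and the difference between the ages was −2.53 (SE 0.32, edgeR adjusted p = 2.85e-07). The order of the means was AdAC direct, neoAC CellC, neoAC direct, AdAC CellC, AGES and NSC, and among the first 3 groups no step passed, the other being that from AdAC direct to neoAC CellC (log2 difference 0.21, SE 0.22, edgeR adjusted p = 0.387). Exons of A330033J07Rik and Gm49291 on the other strand cover 4.44% of the Id4 exon bases.

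**Figure D3:**
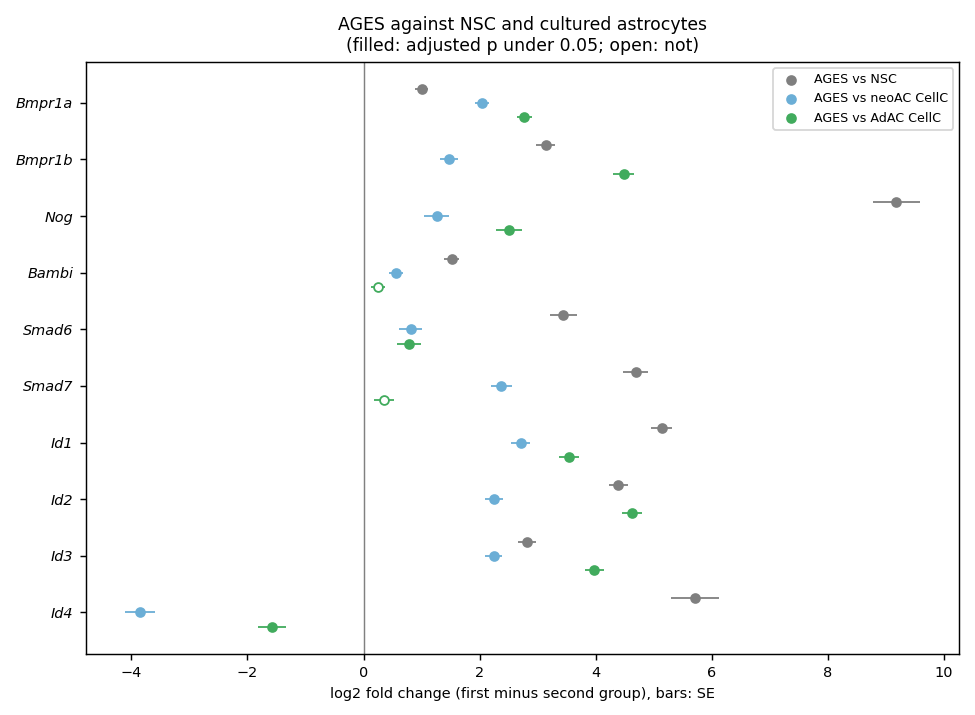
Log2 fold change of each gene in AGES against NSC (grey), neoAC CellC (blue) and AdAC CellC (green), on the x axis, with bars of 1 standard error. Filled points passed an edgeR adjusted p of 0.05. All grey points lie right of 0, from 1.00 for Bmpr1a upwards, and Id4 is the 1 gene with points left of 0, at −3.85 and −1.58. The grey point of Nog rests on 6 counts in NSC.

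The mixture of Id transcripts was read per kilobase of exon. Their sum was 1320.2 ± 115 CPM per kilobase (SD, n = 4) in AGES, 704 ± 74.4 in neoAC direct, 181 ± 6.44 in AdAC direct and 290.4 ± 46.8 in neoAC CellC. NSC at 109 ± 18.1 and AdAC CellC at 99.8 ± 17.2 were the lowest and overlapped. Id3 was 77.4% ± 2.34 of the sum in NSC, while Id1 and Id3 together led in AGES with 40.1% ± 1.13 and 45.0% ± 0.999. In AdAC direct the largest share was that of Id2, 38.8% ± 2.29, followed by Id4 with 27.6% ± 1.41 and Id3 with 24.8% ± 2.89, and Id1 held 8.78% ± 0.511. In AdAC CellC the largest share was that of Id1, 45.5% ± 1.08, and Id2 held 7.88% ± 0.511. With the length of the longest transcript in place of all exon bases, the largest share in AdAC CellC was that of Id3, 45.0%, with 38.9% for Id1. The E proteins, to which Id proteins bind, are encoded by Tcf3, Tcf4 and Tcf12. The ratio of summed Id to summed E protein transcripts per kilobase was 31.1 ± 2.98 in AGES and 1.34 ± 0.194 in NSC. It was 9.40 ± 0.404 in neoAC direct, 6.81 ± 1.73 in neoAC CellC, 1.99 ± 0.300 in AdAC CellC and 4.58 ± 0.0418 in AdAC direct, a ratio of transcripts and not of proteins. Its size depends on the length used, and it was not computed with the longest transcript. All exon bases were 27382 for Tcf4 and 15529 for Tcf12, and their longest transcripts 8577 and 6299 bases. All 3 E protein genes were lower in AGES than in NSC, where 34% of all genes were lower. Tcf3 and Tcf12 fell most, with log2 fold changes of −1.13 (SE 0.13, edgeR adjusted p = 2.44e-08) and −1.05 (SE 0.08, edgeR adjusted p = 9.02e-12).

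The question of whether culture acts alike at both ages was put to the interaction of culture and age, the log2 change with culture in adult cells minus that in neonatal cells. It passed the test for 9 of the 10 genes, where 68.6% of all genes passed, and Smad7 was the exception. Bambi and Smad6 rose and Bmpr1b and Id2 fell at both ages, in each case by more in adult cells. Bmpr1a, Nog and Id3 fell in neonatal cells and did not pass the test in adult cells, and Id4 fell in adult cells and did not pass in neonatal cells. Id1 changed in opposite directions. The libraries of cultured and directly isolated cells did not overlap for 9 of the 10 genes in neonatal cells (58% of all genes) and 7 in adult cells (76.3% of all genes). The fibroblast marker sum was higher in culture at both ages, at 296 to 477 CPM in neoAC CellC against 146 to 231 in neoAC direct, with the adult values given above, and the astrocyte marker sum was lower at both ages. Ependymal markers moved in opposite directions, from a sum of 127 to 196 up to 1435 to 1833 CPM in neonatal culture and from 1008 to 1140 down to 221 to 317 CPM in adult culture, and 4 of 4 passed the interaction with a median of −5.69. All 6 oligodendrocyte markers passed it as well, with a median of −3.48. The part of these markers in these changes was not tested.

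**Figure D4:**
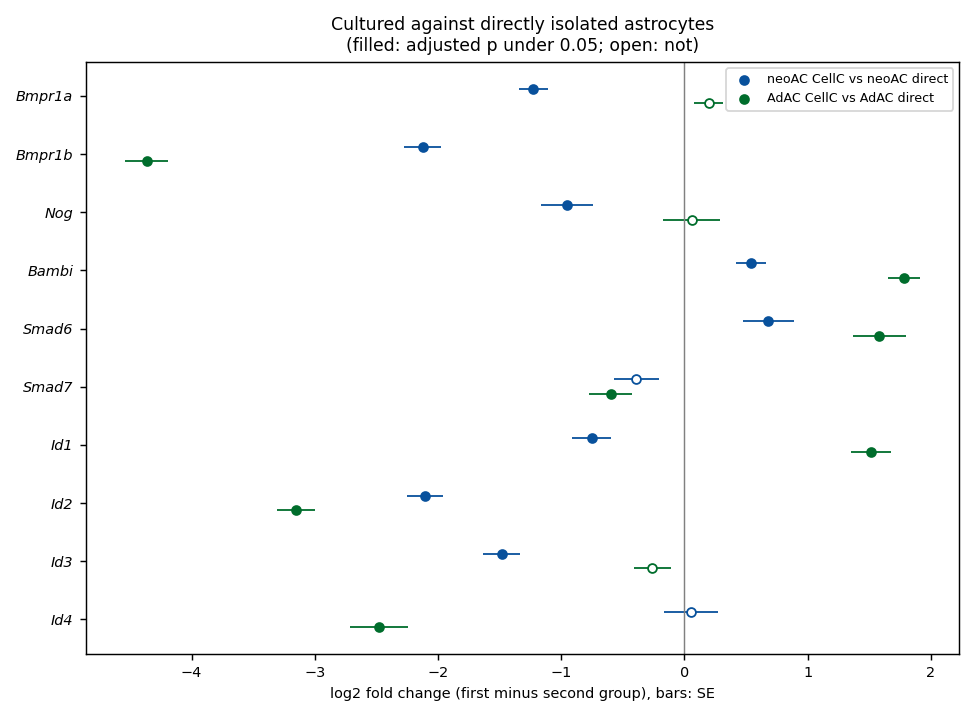
Log2 fold change of each gene in cultured against directly isolated astrocytes, neonatal in blue and adult in green, on the x axis, with bars of 1 standard error and filled points for an edgeR adjusted p under 0.05. Id1 lies on opposite sides of 0, at −0.75 and 1.51, and Bmpr1b lies farthest left in adult cells, at −4.36.

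The rest of the pathway was read from 50 further genes in 6 lists, of which 45 were tested. In AGES against NSC, 19 of the 45 were higher and 11 lower, with a median log2 fold change of 0.13 where that of the 10 genes was 3.92. The 66.7% called was close to the 65.7% of all genes. Of 6 other target genes 5 were higher and 0 lower. Atoh8, a transcription factor gene, had 0.326, 0.0607, 0.159 and 0.468 CPM in NSC and 49.8, 50.8, 61.8 and 59.2 CPM in AGES, a log2 fold change of 7.78 (SE 0.25, edgeR adjusted p = 4.72e-19), and Gata2 rose by 2.90 (SE 0.34, edgeR adjusted p = 5.14e-08). Of the 4 signalling Smads 2 were higher and 2 lower in AGES. Smad9 rose from between 0.425 and 0.828 to between 6.91 and 15.2 CPM (4.17, SE 0.22, edgeR adjusted p = 1.18e-14), and Smad1 by 1.08 (SE 0.09, edgeR adjusted p = 3.02e-11), while Smad5 fell by 1.54 (SE 0.12, edgeR adjusted p = 9.08e-12). Of 5 other intracellular inhibitors 3 were higher and 1 lower. Ski and Tob1 rose, by 1.61 (SE 0.07, edgeR adjusted p = 1.17e-16) and 1.61 (SE 0.09, edgeR adjusted p = 1.22e-14). Among other secreted inhibitors Nbl1 rose by 4.61 (SE 0.16, edgeR adjusted p = 1.87e-18) and Bmper fell by 1.30 (SE 0.24, edgeR adjusted p = 4.52e-05). Of 8 other receptor and co-receptor genes tested 3 were higher and 4 lower, with a median log2 fold change of −0.20. Of all genes 31.7% were higher and 34% lower. The type II receptor gene Bmpr2 rose by 0.61 (SE 0.09, edgeR adjusted p = 8.24e-07).

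BMP ligand genes were mostly lower in AGES than in the cultured astrocytes. Of 11 ligand genes tested 1 was higher and 2 were lower in AGES than in NSC, where 31.7% of all genes were higher and 34% lower. Bmp7 fell from 64.0, 51.3, 120.3 and 63.6 CPM to 3.94, 2.93, 3.88 and 4.44 CPM, a log2 fold change of −4.30 (SE 0.22, edgeR adjusted p = 1.20e-14). Bmp4, whose protein had been added, had no count in any AGES library. The NSC, to which none had been added, had 4 counts in sum, a mean of 0.0334 CPM. AdAC CellC with 10.8, 9.85, 8.81 and 11.6 CPM were at least 103-fold above AGES, taking 3 counts per library as the floor. Against AdAC CellC all 11 ligand genes were lower, and 10 were lower than in neoAC CellC. In these comparisons 45.2% and 40.5% of all genes were lower. Bmp2, Bmp3, Bmp4, Bmp5, Bmp8a, Bmp8b, Gdf5, Gdf6 and Gdf7 had 3 counts or fewer in every AGES library. Those of them that were tested had enough counts only in other groups. A lower level in AGES was thus nearly fixed in advance, and these counts are a description. Bmp6 had 239.6, 308, 316 and 331 CPM in neoAC CellC, against 17.3, 14.8, 10.8 and 14.6 CPM in neoAC direct, a log2 fold change of 4.38 (SE 0.16, edgeR adjusted p = 1.60e-17). Adult cells in culture gained Gdf6, with 76.4, 57.5, 50.8 and 53.0 CPM against 0.497, 0.216, 0.267 and 0.197 CPM, a log2 fold change of 7.68 (SE 0.25, edgeR adjusted p = 1.36e-17). The secreted inhibitor genes Grem1 and Fst rose in the same comparison, Grem1 to 43.8, 28.6, 46.8 and 42.2 CPM from 0 to 3 counts per library (a ratio of 749 with an exact 95% counting interval from 363 to 1864) and Fst to 30.9, 27.9, 26.2 and 29.3 CPM from 0.532, 0.463, 0.327 and 0.367 CPM. These rises went with the higher fibroblast marker sum of AdAC CellC, and the part of these cells was not tested.

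In adult cells 24 of the 45 further genes rose and 14 fell in culture, and in neonatal cells 11 rose and 25 fell. Of all genes 38.8% rose and 39.2% fell in adult cells, and 34.4% and 31.3% in neonatal cells. The medians were 0.48 and −0.60, beside 0.00 and 0.04 over all genes. Tmem100, a BMP target gene, had 46.8, 40.5, 36.9 and 43.6 CPM in AdAC direct and 1.04, 1.37, 1.94 and 1.30 in AdAC CellC (−4.88, SE 0.36, edgeR adjusted p = 3.07e-11). In neonatal cells it had 108, 118, 110.3 and 136 CPM directly and 10.7, 13.3, 12.6 and 13.1 in culture (−3.25, SE 0.31, edgeR adjusted p = 3.57e-09), so that it fell at both ages. Atoh8 rose at both ages, by 1.79 (SE 0.19, edgeR adjusted p = 3.20e-09) and 1.84 (SE 0.17, edgeR adjusted p = 6.14e-10), so target genes outside the Id family moved both ways. Smad9 fell in adult cells by 2.67 (SE 0.19, edgeR adjusted p = 2.59e-12) and rose in neonatal cells by 0.45 (SE 0.17, edgeR adjusted p = 0.0197). Rgma fell in adult cells by 2.25 (SE 0.18, edgeR adjusted p = 4.00e-11). Between directly isolated neonatal and adult cells 27 of the 45 were higher and 6 lower in the neonatal ones (35% and 36.4% of all genes), with Bmper (2.91, SE 0.26, edgeR adjusted p = 4.48e-10) and Skil (1.94, SE 0.20, edgeR adjusted p = 5.74e-09) among those that were higher. Among the helix-loop-helix factors that Id proteins oppose or Notch controls, 8 of 9 were tested. Hes5, a Notch target, fell in adult cells from 102, 122, 91.0 and 66.5 CPM to 0.890, 0.991, 1.94 and 1.71 CPM in culture (−6.10, SE 0.34, edgeR adjusted p = 2.45e-13) and in neonatal cells from 569, 550.2, 612 and 308 CPM to 0.873, 0.891, 0.720 and 0.720 CPM (−9.31, SE 0.39, edgeR adjusted p = 3.76e-15). Olig2, an oligodendrocyte lineage factor, was lower in AGES than in NSC, at 38.1 to 49.6 against 530.4 to 674 CPM (−3.81, SE 0.25, edgeR adjusted p = 2.66e-12).

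The genes whose log2 CPM followed a member most closely over the 24 libraries are given as a description, since 4 libraries of a group share their conditions and the correlation is mainly between 6 group means. For Bmpr1a these were Purg (0.98), Smap1 (0.98) and Bmpr2 (0.98), with Pearson's r in brackets, so that the closest included the type II receptor gene Bmpr2. For Bmpr1b they were Hacd3 (0.99), Ago4 (0.98) and Asphd2 (0.98), and for Id2 Asphd2 (0.98), Pygb (0.97) and Ppp2r5a (0.97), with Asphd2 in both. Id2 and Bmpr1b followed each other with an r of 0.95, and each was the other's closest gene within the BMP lists. For Id4 they were Clu (0.98), Galt (0.98) and Slc7a2 (0.98), and for Id1 Pea15a (0.98), Gpc6 (0.97) and Cux1 (0.97). The nearest genes of Id3 were Fam19a5 (0.98), Gpr173 (0.97) and Oat (0.97), those of Smad6 Tnks1bp1 (0.95), Capn1 (0.95) and Tapbp (0.95) and those of Smad7 Adap1 (0.96), Aebp1 (0.96) and Pip4k2c (0.95). Those of Bambi were Fn1 (0.96), Sparc (0.96) and Tax1bp3 (0.96), with Fn1 and Sparc being genes of the extracellular matrix, and those of Nog Acadsb (0.97), Islr (0.97) and Plxna4 (0.97). Within the BMP lists the closest gene to Smad6 was the target gene Atoh8, with an r of 0.92.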

How the data were processed

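RNA was measured in 24 mouse libraries, 4 in each of 6 groups assigned from their titles. The authors made stranded poly(A) libraries, sequenced them in paired mode on a NovaSeq 6000, aligned the reads to GRCm38 with STAR 2.7.3a after bcl2fastq 2.20, and counted them per gene with featureCounts on Gencode vM12. The deposited values are whole-number counts per gene that the authors neither normalized nor filtered, and whether strand and read pairs were used is not given in the sources used here. Symbols, exon lengths and positions came from Gencode vM21, where 49412 of 49671 identifiers (99.5%) were found.

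Genes kept by filterByExpr (19691) were scaled by TMM and fitted in edgeR 4.0.16 (R 4.3.3) with the robust quasi-likelihood model, 1 fit of 6 groups. Of 15 pairs of groups, 7 comparisons were tested two-sided, as was the interaction of age and culture, adjusted by Benjamini-Hochberg over all genes with a threshold of 0.05. The other pairs served for neighbours in the order of means. The SE was taken as |log2 fold change| over the root of F. Levels per length are CPM per kilobase of the union of exons, and likeness is Pearson's r of log2 CPM with a prior count of 2. Of the other pathway lists, up to 2 genes higher and 2 lower per comparison could be named, those with the largest change among called genes whose higher group had a mean of 5 CPM or more. The members, lists and markers were chosen with earlier results of these data known. The alternatives were DESeq2 1.42.0 (its size factors, or its Wald test), scaling by library size, no filter or at least 10 counts in every library, fits of the compared groups only with and without a replicate block, the longest transcript as length, and leaving out each library. The scripts were tested on simulated data. Promoter letters came from RefSeq (GRCm38.p6).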

Additional observations from a re-analysis of the deposited data

Results flagged for a closer look

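Of 60 groups of 4 libraries, 5 held a library whose gap to the nearest of the others exceeded Dixon's critical share of the group's whole range, and chance flags about 1 in 20 groups. Id2 was lower in AdAC direct replicate 2, at 164 CPM, than in the other 3 libraries (gap 0.861 of the range), although these 4 libraries lay within a narrow band. Bambi was higher in AGES replicate 3, at 39.7 CPM (gap 0.862). Bmpr1a was lower in NSC replicate 2, at 246 CPM (gap 0.914), and Bmpr1b was higher in neoAC direct replicate 4, at 173 CPM (gap 0.885). Nog had 0.0910 CPM in NSC replicate 2, where it had 3 counts and the other libraries 1 each (gap 0.973).

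The change with culture differed between adult and neonatal cells by the interaction in edgeR's fit for 9 of the 10 genes, beside 68.6% of all genes. The adult minus the neonatal log2 change was 2.27 for Id1, whose level was higher in cultured adult and lower in cultured neonatal cells than in those directly isolated. For Id2 it was −1.05 and for Bmpr1b −2.24, genes that fell at both ages. It was −2.53 for Id4, which fell in adult cells, and 1.22 for Id3, 1.42 for Bmpr1a and 1.01 for Nog, which fell in neonatal cells. For Bambi and Smad6, which rose at both ages, it was 1.24 and 0.90. The age groups also differed in dissociation kit and brain region, which cannot be told apart from age.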

How the results depend on the processing

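The counts of called members per comparison stayed within 1.5 times of those reported under every alternative, from 6 to 10 of those tested, and from 7 to 10 when single libraries were left out. Asking for 10 or more counts in all libraries left out Id4 and Nog. No called fold change turned its direction. Calls were lost for Bambi alone. Its difference between neoAC CellC and AdAC CellC did not pass with 10 or more counts in all libraries (−0.17), DESeq2's size factors (−0.20), its Wald test (−0.20), scaling by library size (−0.22) or no filter (−0.23), or without AdAC CellC replicate 2 or 4 or neoAC CellC replicate 1, 2 or 4 (−0.35 to −0.24 over all libraries left out). That between AGES and neoAC CellC did not pass with library size scaling (0.25). Calls were gained under some settings for Bambi and Smad7 in AGES against AdAC CellC, Id3 and Bmpr1a in adult culture, Smad7 in neonatal culture and Id4 between the directly isolated cells.

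The values that reversed were all uncalled and near 0, and the cause was not tested. Id4 in neonatal culture was −0.0074 without a filter and −0.031 to 0.17 with a library left out. Nog in adult culture was −0.024 with DESeq2's size factors, −0.024 with its Wald test and −0.041 without a filter. Smad6 between the cultured cells was 0.11 with 10 or more counts in all libraries, 0.077 with DESeq2's size factors and 0.077 with its Wald test. It was 0.054 with library size scaling, 0.052 without a filter, and −0.087 to 0.083 with a library left out.

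Same-numbered replicates did not deviate together (r from −0.10 to 0.11, with 1 pair over 0.1), so the numbers were not taken to pair the libraries. In fits of the compared groups only, Smad6 between the cultured cells was 0.063 without and 0.070 with the replicate block. Id4 between the directly isolated cells passed at −0.25 without and −0.25 with the replicate block, and the block changed no call of those fits.

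With library size scaling the median of all genes moved from 0.04 to 0.27 in neonatal culture, from −0.23 to −0.44 in AGES against AdAC CellC and from −0.07 to −0.37 against neoAC CellC. Calls over all genes went from 6766 higher and 6170 lower to 8625 and 4468 in neonatal culture and from 6710 higher and 7977 lower to 4506 and 9820 in AGES against neoAC CellC. The filter of 10 or more counts in all libraries left 11977 genes, so that in adult culture 4611 were higher and 5216 lower. Of 36 shares per length 16 moved by more than 1 SD with the longest transcript, and 5 of 60 mean levels did with library size scaling. Depth limits Nog in NSC, with 6 counts, and Id4 there, with 5 to 8 counts per library.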

Other observations

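Between the cultured astrocytes of both ages, 17 of 45 further pathway genes were higher and 19 lower in the neonatal cells, where 63.8% of all genes were called. The signalling Smad gene Smad9 had 20.5, 27.8, 29.5 and 31.3 CPM in neoAC CellC and 2.06, 2.13, 1.78 and 2.42 in AdAC CellC (3.70, SE 0.19, edgeR adjusted p = 2.89e-14). Of the target genes, Tmem100 (3.12, SE 0.36, edgeR adjusted p = 9.34e-08) and the Notch and BMP target Hey1 (2.72, SE 0.16, edgeR adjusted p = 6.85e-13) were higher in the neonatal cells, and Msx2 (−1.57, SE 0.22, edgeR adjusted p = 7.60e-07) was lower. Among ligand genes Bmp6 was higher (1.77, SE 0.14, edgeR adjusted p = 3.79e-11) and Gdf6 lower (−5.01, SE 0.20, edgeR adjusted p = 2.67e-15), and of the secreted inhibitor genes Sostdc1 was higher (1.89, SE 0.28, edgeR adjusted p = 2.04e-06) and Fst lower (−4.14, SE 0.24, edgeR adjusted p = 2.12e-13). The receptor genes Acvrl1 and Eng, known for their part in endothelial cells, were lower in the neonatal cells, with log2 fold changes of −3.38 (SE 0.35, edgeR adjusted p = 9.47e-09) and −2.20 (SE 0.33, edgeR adjusted p = 4.29e-06). The endothelial marker sum was 43.5 to 71.3 CPM in neoAC CellC and 68.0 to 78.1 in AdAC CellC, but 6 of its 7 markers were lower in neoAC CellC, with a median log2 fold change of −2.84, and only Kdr was higher. Their part in these differences was not tested.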
